A study of Homo sapiens with 12 samples.

Results

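The 12 libraries of the series were compared by how they were made: 6 T libraries, which went through a CRISPR/Cas9 step directed at ribosomal RNA, were set against 6 U libraries, which did not. Members were chosen by their label, treated or control for that step, so all 12 of 12 libraries were used, and T and U were paired by the sample from which both were made. The samples were ribosome footprints of 3 lymphoblastoid lines, B cells made immortal by Epstein-Barr virus, named GM18505, GM19193 and GM19204 and all wild type by their labels. Each cell line gave an arsenite culture, treated with sodium arsenite for 30 min, and a control culture that received water, which made 3 arsenite pairs and 3 control pairs. The 6 T libraries were also made in another round of library preparation than the 6 U libraries, so the effects of the CRISPR step and of that round cannot be told apart here. T and U of a pair share 1 footprint RNA and 1 pool of spike-in oligomers, which was added before library construction, so they are technical replicates apart from that step and round.

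Ribosome profiling sequences the short stretches of RNA that ribosomes shield from nuclease. The nuclease also cuts the ribosome itself, and the fragments of its 28S, 18S, 5.8S and 5S rRNA take up most of a library. In the CRISPR approach, Cas9 is guided to rRNA sequence in the sequencing library and cuts those molecules so that they are no longer sequenced. Every library, T or U, had also been depleted of rRNA with a subtraction oligo. A library member without a guide match should pass untouched, and the comparison of T with U libraries asks which genes and RNA classes did not. Reads of rRNA, transfer RNA and small nucleolar RNA were also removed by computation from all 12 libraries before mapping, so the amount of rRNA itself is not measured by these counts. From the reads before that removal, the paper reported that the share of rRNA did not differ significantly with the CRISPR step (Wilcoxon rank sum test). A lowering of rRNA by the step was thus not shown, though a rank sum test does not use the pairing of T with U. The table lists a gene only if all 12 libraries had a read of it, and a gene lost altogether from a T library would not be among them.

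Since the guides themselves were not used here, loci like rRNA were the ones to look at first. The one that the results turn on, picked after the values were seen, is shown with the rRNA stretch it resembles (GRCh38, without gaps, capitals for the longest run of identical bases). ENSG00000275110 is a 49-base locus on chromosome X that the annotation calls a miRNA. It equals 28S rRNA at 48 of 49 bases, and the only difference, counted from the first base of the stretch with the rRNA base first, is C23T.
ENSG00000275110, chrX:109054542-109054590, plus strand: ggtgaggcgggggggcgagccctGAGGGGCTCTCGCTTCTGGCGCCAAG
28S rRNA of RNA45SN2, chr21:8217953-8218001, plus strand: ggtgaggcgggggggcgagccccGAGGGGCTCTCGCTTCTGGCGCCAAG
A footprint that lies wholly within the capitals, or wholly before C23T, is the same in the locus and in rRNA. The sequence of such a footprint alone does not tell its source. The authors removed reads matching their rRNA reference before mapping and kept only uniquely mapped reads. Those filters should have left such a footprint out of the counts, if their reference held this stretch. A footprint across C23T differs from rRNA at that base alone, and the authors' mapping tolerated mismatches. Which footprints made up the counts of the locus was not tested.

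Gene counts ranged from 637177 to 2971178 in T libraries and from 689054 to 4112703 in U libraries, and the T library had between 0.415 and 1.09 times the counts of its U library. The lowest ratio was that of arsenite GM19193 and the highest that of arsenite GM19204. All 12 of 12 B cell markers fixed for the check were in the table, and none of 16 markers of other blood cells were.

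T and U libraries of a pair differed for few genes. For 12373 features (12357 genes and 16 oligomers), edgeR's quasi-likelihood test over 6 pairs, with Benjamini-Hochberg adjustment over all of them, called 1 gene higher and 1 lower in T libraries at an adjusted p under 0.05, which is 0.0162% of the features. At an unadjusted p under 0.05, 254 features (2.05%) were higher and 271 (2.19%) lower in T. A total of 218 genes (1.76%) were higher in T in all 6 pairs, and 198 (1.6%) were lower in all 6. The median log2 fold change of T over U was -0.003 over all genes. Among the 6045 genes that averaged 50 counts or more per library, no fold change was below -0.56 or above 0.47 on the log2 scale, and among the 240 that averaged 1000 or more they ran from -0.25 to 0.10.

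**Figure D1:**
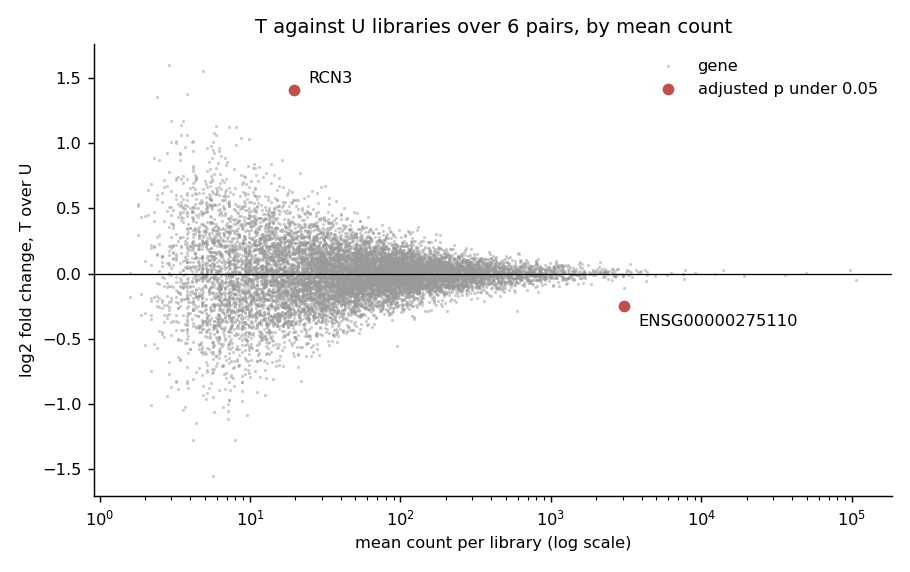
Log2 fold change of T over U libraries fitted over 6 pairs (vertical axis) against the mean count per library (horizontal axis, log scale), 1 grey point per gene. The cloud narrows toward 0 as counts rise, and the 2 called genes, RCN3 at 1.41 and ENSG00000275110 at -0.25, are drawn as red points.

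The differences between T and U in one pair bore little relation to those in another. Across the same 6045 genes, the log2 ratio of T over U in one pair had a Spearman correlation between -0.016 and 0.021 with that in another, over the 15 combinations of pairs, given as a description because genes are not replicates. The scatter within a pair was nevertheless larger than counting error alone. The chi-square of T against U counts per gene, which is 1 for pure counting error, was 1.61, 1.43 and 1.63 in the arsenite pairs of GM19193, GM19204 and GM18505, and 1.58, 1.64 and 1.63 in the control pairs in the same order. For the 240 most abundant genes, the standard deviation (SD) of the log2 ratio was 0.123, 0.120 and 0.158 in the arsenite pairs, against 0.0914, 0.0889 and 0.120 from counting, and 0.080, 0.109 and 0.0747 in the control pairs, against 0.0577, 0.0526 and 0.0563 from counting. Among genes with at least 50 reads in a pair, T and U differed by more than 2-fold for 148 of 6870, 63 of 5967 and 88 of 3939 genes in the arsenite pairs of GM19193, GM19204 and GM18505, and for 56 of 8698, 52 of 8994 and 64 of 8931 genes in the control pairs in that order. More of these were lower than higher in T in every pair, with 99 lower and 49 higher in arsenite GM19193 as the widest gap. That pair also had the lowest ratio of T to U counts, at 0.415. Only in arsenite GM19204, with 39 lower and 24 higher, was T the deeper library. What depth contributed to the skew was not tested.

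The 1 gene that fell over 6 pairs was the 28S-like locus shown above. ENSG00000275110 had 2578, 2680 and 3438 CPM (counts scaled to a common library size, after TMM scaling) in the T libraries of arsenite GM19193, GM19204 and GM18505, against 3285, 2765 and 2886 CPM in their U libraries. In control cells it had 1136, 420 and 1137 CPM in the T libraries of the same cell lines, against 1129, 886 and 1414 CPM in the U libraries. The drop was deepest in control GM19204, at -1.08 on the log2 scale, while control GM19193 at 0.01 and arsenite GM18505 at 0.25 were not lower in T. Its fitted log2 fold change was -0.25 (SE 0.052, adjusted p = 0.0407) over 6 pairs, -0.44 (SE 0.065, adjusted p = 9.51e-06) in the control pairs and -0.06 (SE 0.065, adjusted p = 0.946) in the arsenite pairs. Each SE was derived from the test and does not measure the spread over pairs, which was wide in the control pairs, at 0.01, -1.08 and -0.31. Without control GM19204 the value over 6 pairs was -0.10 and that of the control pairs -0.15, with an adjusted p of 1.0 for both, so both calls rest on that pair. The call over 6 pairs was also lost without control GM18505 (-0.24), arsenite GM19193 (-0.22) or arsenite GM19204 (-0.29). DESeq2 and limma made neither call. The difference between the arsenite and control values, 0.38 (SE 0.092), did not pass over all features (adjusted p = 0.283), but it did without control GM19193 (0.61), control GM18505 (0.46) or arsenite GM19193 (0.53).

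The 1 gene that rose was RCN3, which codes for reticulocalbin 3, a calcium-binding protein of the endoplasmic reticulum. Its counts were low: 33, 18 and 9 in the T libraries of arsenite GM19193, GM19204 and GM18505, against 13, 13 and 12 in their U libraries, and 45, 32 and 15 in the T libraries of the control cells, against 26, 8 and 11 in the U libraries. After scaling it was higher in T in 5 of 6 pairs, the exception being arsenite GM18505 at -0.28 on the log2 scale. The fitted log2 fold change was 1.41 (SE 0.259, adjusted p = 0.00615) over 6 pairs, 1.63 (SE 0.347, adjusted p = 0.0343) in control pairs and 1.14 (SE 0.384, adjusted p = 0.680) in arsenite pairs. Leaving out control GM19193, control GM19204 or arsenite GM19193 ended the call over 6 pairs, with log2 values of 1.38, 1.25 and 1.13, and it was lost with DESeq2 (1.35) and limma (1.26). The call in control pairs was lost without any 1 of the 3 control pairs, at values between 1.40 and 1.79, and also without arsenite GM19204. RCN3 held no 25-base stretch within 2 mismatches of rRNA.

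The control pairs alone gave 3 calls (0.0242% of features, with 3.33% at an unadjusted p under 0.05): RCN3, ENSG00000275110 and SOWAHA, a protein-coding gene on chromosome 5. SOWAHA had 86, 96 and 42 counts in the T libraries of control GM19193, GM19204 and GM18505, against 178, 229 and 134 in their U libraries. All 3 control pairs were lower in T, by a fitted log2 fold change of -0.73 (SE 0.147, adjusted p = 0.0175). In the arsenite pairs it had 99, 121 and 77 counts in T libraries of the same cell lines, against 211, 107 and 95 in U libraries, and the fitted value was 0.03 (SE 0.146, adjusted p = 0.990). The call was lost without control GM19204, at -0.54, without control GM18505, at -0.72, and when the deeper library of each pair was thinned, at -0.69. These 3 genes were named after their values were seen, since no gene passed the rule for named genes, which asks for 1 direction in all 6 pairs.

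**Figure D2:**
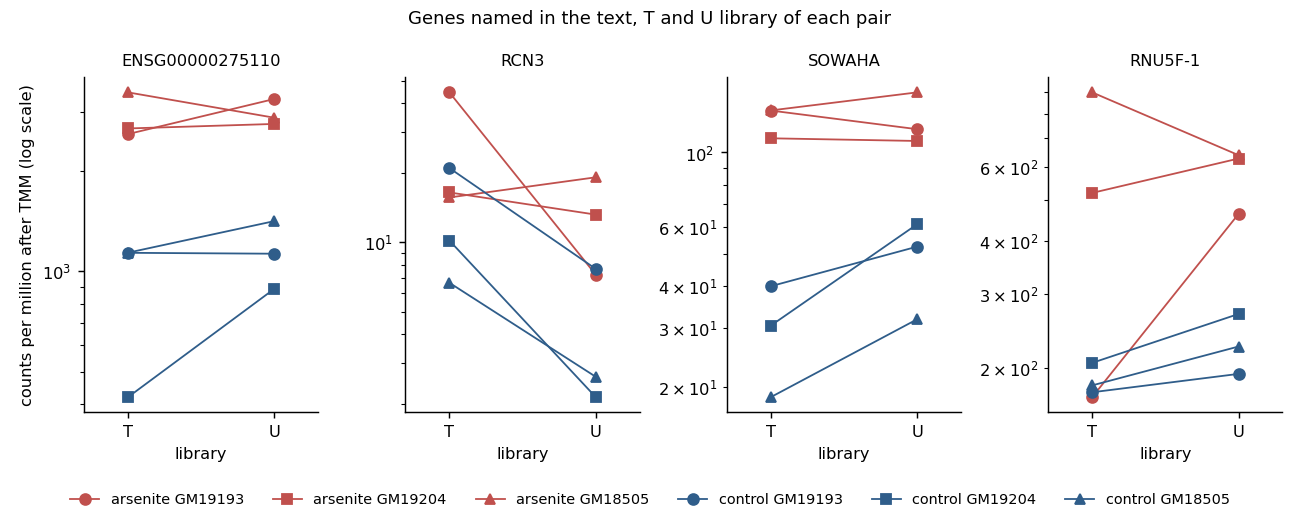
CPM after TMM scaling (vertical axes, log scale) of 4 genes in the T library (left) and U library (right) of each pair, 1 line per pair, arsenite in red and control in blue. ENSG00000275110 falls most in T for control GM19204, RCN3 is higher in T in 5 of 6 pairs, SOWAHA is lower in T in the 3 control pairs, and RNU5F-1 falls most in T for arsenite GM19193.

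The arsenite pairs gave 0 calls (0%), with 6.07% of features at an unadjusted p under 0.05 in edgeR, and 0 calls by DESeq2 and by limma. The test of the difference between arsenite and control pairs also gave 0 calls (0%), with 5.06% at an unadjusted p under 0.05, and 0 by DESeq2 and limma. The smallest p values of that test belonged to ACAD9, an assembly factor of mitochondrial complex I, LDHB, a subunit of lactate dehydrogenase, and the 28S-like locus, all at an adjusted p of 0.283. ACAD9 had 56, 57 and 25 counts in T libraries of arsenite GM19193, GM19204 and GM18505, against 60, 29 and 19 in U libraries, and its log2 ratios were 1.18, 0.82 and 0.52, against -0.03, -0.08 and -0.29 in the control pairs. These ratios are scaled for depth, and all 3 arsenite pairs were positive and all 3 control pairs negative. Leaving out arsenite GM18505 raised the calls in the arsenite pairs to 9, while leaving out any other pair left them at 0, and the 9 included RNU5F-1, ACAD9, PDIA5 and LINC01922.

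The rRNA-like genes were next taken as a group. The table holds 102 nuclear rRNA genes and rRNA pseudogenes, most of them copies of 5S rRNA. Their share of gene counts was higher in T in all 6 pairs, but by little: 1.44%, 1.12% and 0.792% in T libraries of arsenite GM19193, GM19204 and GM18505, against 1.40%, 1.10% and 0.761% in U libraries, and 0.436%, 0.329% and 0.286% in T libraries of the control cells, against 0.434%, 0.318% and 0.283% in U libraries. The mean log2 ratio of T over U was 0.033 ± 0.021 (SD, n = 6 pairs), the opposite direction to a loss. An exact sign-flip test over the 6 pairs gave p = 0.031, the smallest it can give, and an adjusted p of 0.2188 over the 14 classes tested. None of the 102 genes was called, and 4 were higher and 1 lower at an unadjusted p under 0.05. At that threshold 2.05% of all features were higher and 2.19% lower, and the same shares apply to the list counts that follow. The median log2 fold change of the 102 genes was 0.052, against -0.003 over all genes.

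The 7 largest of these genes held 70.5% of the class counts. RNA5SP202, a 5S copy, had a log2 fold change of 0.06 (SE 0.039), with 0.30, 0.13 and 0.12 in the arsenite pairs of GM19193, GM19204 and GM18505 and -0.05, -0.01 and -0.18 in the control pairs. RNA5SP150, RNA5SP426 and RNA5SP336, also 5S copies, had 0.05, 0.06 and 0.06, and RNA5-8SP2, a pseudogene of 5.8S rRNA, had 0.06. RNA5SP248, the largest, had -0.03. The members with the smallest p were RNA5SP264 (log2 fold change 1.17, at a mean of 3.0 counts), RNA5SP243 (0.40) and RNA5SP358 (0.25), all higher in T and none called. Of the 24 members outside chromosome Y that averaged at least 50 counts, 18 had a positive value, and all lay between -0.15 and 0.40.

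Resemblance to rRNA was also read from sequence. Exons of 258 genes shared an exact 20-base word with nuclear rRNA, and of these 1 was called (ENSG00000275110), 6 were higher and 2 lower at an unadjusted p under 0.05, with a median of 0.003. A wider search, chosen after the data were seen and so described without a test, took every gene with a 25-base window within 2 mismatches of rRNA and found 187, of which 118 resembled 5S, 36 resembled 28S and 6 resembled 5.8S. The median log2 fold change was 0.044 for the 5S group, -0.054 for the 28S group, which holds ENSG00000275110, and 0.038 for the 5.8S group. Apart from rRNA genes and pseudogenes, 88 genes had such a window, with a median of -0.031, 1 at an unadjusted p under 0.05 higher (PLXNC1, a semaphorin receptor, at 0.33) and 4 lower. The gene of that group with the most windows of 28S rRNA, ENSG00000283907, a long noncoding RNA with 161, had 0.10 (SE 0.071), and MIR663AHG, with 430 windows of the 5′ spacer of the rRNA precursor, had -0.48 (SE 0.294). Neither was called.

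**Figure D3:**
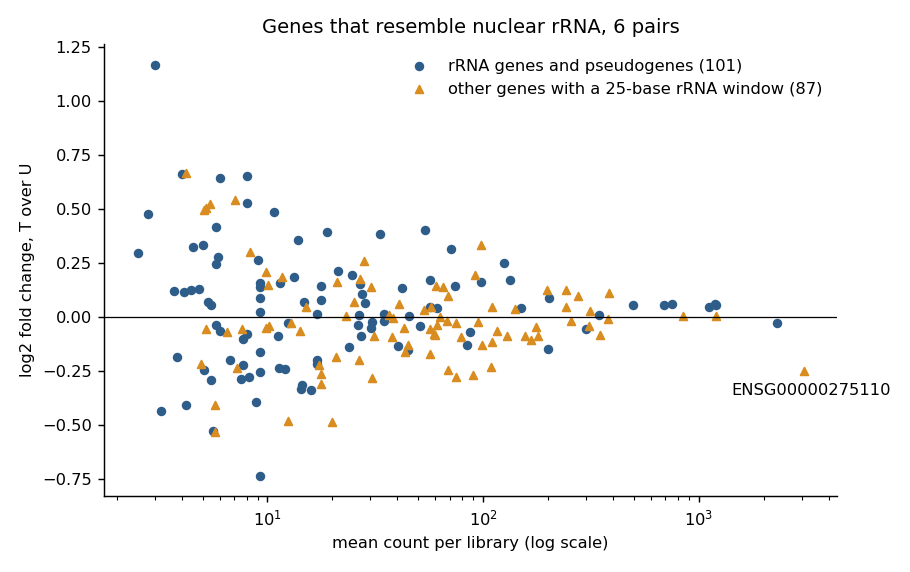
Log2 fold change of T over U over 6 pairs (vertical axis) against mean count (horizontal axis, log scale) for 101 rRNA genes and pseudogenes outside chromosome Y (blue circles) and 87 other genes with a 25-base rRNA window (orange triangles). ENSG00000275110, at -0.25 with a mean count of 3060, the highest of them, is the only called point.

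None of the 14 shares passed the sign-flip test after adjustment. Nuclear protein-coding genes held 75.3% of counts in T libraries and 75.2% in U libraries on average, a mean log2 ratio of 0.003 ± 0.007 (SD, n = 6 pairs). Long noncoding RNA was lower in T in all 6 pairs, at -0.042 ± 0.030 (SD, n = 6 pairs, exact p = 0.031, adjusted p = 0.2188). Most of that class is 1 gene, ENSG00000286171, a locus on chromosome 7 (148941483 to 148941638) in which RefSeq places RNY5, a Y RNA. It took 5.03%, 14.3% and 15.2% of T counts in arsenite GM19193, GM19204 and GM18505, against 5.34%, 14.7% and 15.2% of U counts, and 1.80%, 3.30% and 4.58% of T counts in the control cells, against 1.85%, 3.35% and 4.96% of U counts. Its fitted log2 fold change was -0.05 (SE 0.016) at an unadjusted p of 0.0014, and it was not called. Without it, long noncoding RNA averaged -0.012 ± 0.023 (SD) and was no longer lower in every pair.

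The miRNA class had the widest spread, at -0.101 ± 0.193 (SD, n = 6 pairs, exact p = 0.21875), and held the 28S-like locus as its largest member. Control GM19204 stood at -0.435 and arsenite GM18505 at 0.145. Without ENSG00000275110, the class averaged -0.012 ± 0.066 (SD), and control GM19204 was at -0.093. Its next largest members, MIR25, MIR191 and MIRLET7G, had log2 fold changes of 0.08, -0.07 and -0.08, each with an SE of 0.042 to 0.052. MIR210 (0.30) and MIR26B (-0.90, at a mean of 8.8 counts) had the smallest p among the rest, and neither was called.

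**Figure D4:**
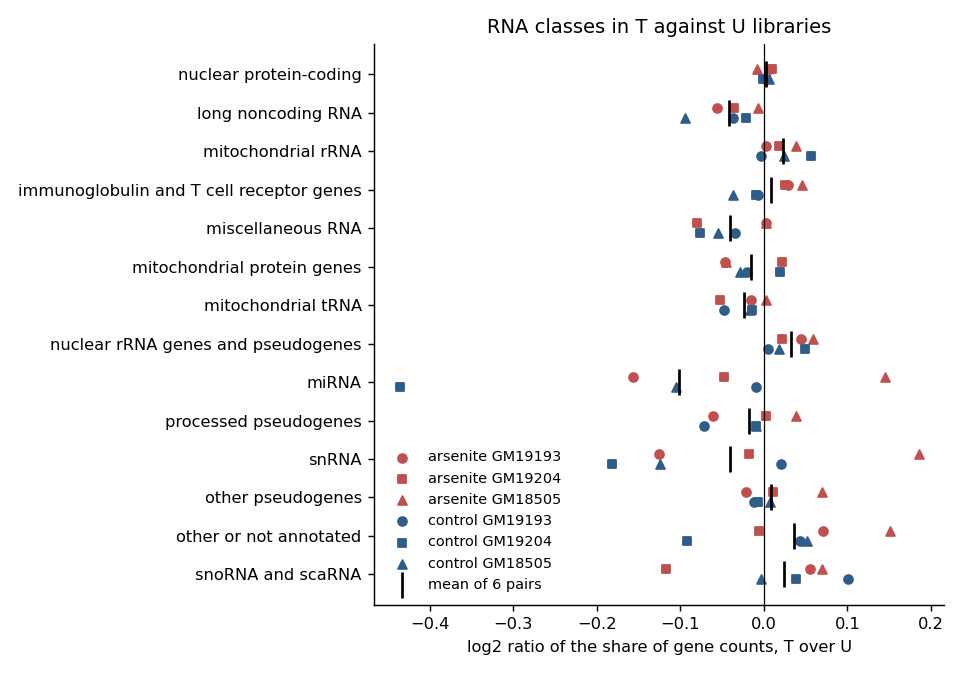
Log2 ratio of each RNA class's share of gene counts, T over U (horizontal axis), for the 6 pairs, arsenite in red above control in blue, with a black bar at the mean. Most points lie within 0.1 of 0; the miRNA point of control GM19204 at -0.435 is the farthest.

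Small nuclear RNAs of the spliceosome showed how unequal the pairs were. Their share averaged -0.041 ± 0.134 (SD, n = 6 pairs). Of 39 genes, 3 were higher and 3 lower at an unadjusted p under 0.05 (2.05% and 2.19% over all features), and none was called. RNU5F-1, a U5 snRNA gene, had 127, 571 and 519 counts in T libraries of arsenite GM19193, GM19204 and GM18505, against 834, 620 and 402 in U libraries, and 378, 649 and 410 in T libraries of the control cells, against 659, 1008 and 948 in U libraries. Its log2 ratio was -1.44 in arsenite GM19193 and 0.49 in arsenite GM18505, and the fitted value was -0.29 (SE 0.069, adjusted p = 0.247). Without arsenite GM18505 it was -0.43 and was called (adjusted p = 7.72e-06). RNU4-2, RNU5B-1 and RNU5A-1, named for their counts, followed the same order, at -0.78, -0.67 and -0.43 in arsenite GM19193 and 0.63, 0.61 and 0.64 in arsenite GM18505. RNVU1-8, a variant U1 gene with the most counts of the class, had 0.14 and -0.04 in these pairs. RNVU1-2A, a variant U1 gene, was lower in T in all 6 pairs, at a fitted -0.33 (SE 0.104, adjusted p = 1.0), and RNU1-78P had 0.50.

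The other short noncoding RNAs were described list by list. Among 65 Y RNA genes and copies, whose RNAs bind the Ro protein, 1 was higher and 4 lower at an unadjusted p under 0.05. Over all features 2.05% were higher and 2.19% lower. The median of the list was -0.045. The 3 with the smallest p, ENSG00000222941 (-0.17), RNY4P6 (-0.48) and ENSG00000201820 (-0.10), were all lower in T, while RNY1, at 2374 counts on average, had 0.002. ENSG00000286171, the locus in which RefSeq places RNY5, is not in this list. RN7SL1, the RNA of the signal recognition particle, had -0.08 (SE 0.033). Among the 42 genes and copies of its family, with a median of -0.008, RN7SL1 was the only one at an unadjusted p under 0.05. RN7SL321P had 0.60 and RN7SL11P -0.84, on 9.3 and 3.8 counts on average. The 4 vault RNA genes had a median of 0.007 with none at that threshold, and VTRNA1-2, VTRNA1-3 and VTRNA3-1P had 0.01, 0.02 and -0.15. Among 18 snoRNA and scaRNA genes, which are in the table although reads matching such RNAs were removed, SNORD100 (-0.71) was the only one under 0.05 unadjusted, and SNORA74A and SNORD66 had 0.47 and 0.47. The 22 snoRNA host genes had a median of -0.046 with 2 lower, SNHG7 (-0.61) and GAS5 (-0.08), and SNHG5 had 0.13.

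Mitochondrial rRNA, which the mitochondrial genome encodes for its own ribosomes, was taken next. MT-RNR2 had 90080, 91420 and 73600 CPM in T libraries of arsenite GM19193, GM19204 and GM18505, against 89090, 91010 and 71040 CPM in U libraries, and 33960, 37910 and 33680 CPM in T libraries of the control cells, against 34450, 35460 and 33070 CPM in U libraries. T was the higher library in 5 of 6 pairs, and the fitted log2 fold change was 0.03 (SE 0.016). MT-RNR1 had 0.01 (SE 0.017). The share of both together was higher in T in 5 of 6 pairs, at 0.023 ± 0.022 (SD, n = 6 pairs, exact p = 0.09375, adjusted p = 0.3281). The 22 mitochondrial tRNA genes had a median of -0.023 with 1 lower at an unadjusted p under 0.05 (MT-TQ, -0.26), and MT-TA and MT-TV had -0.42 and -0.04. The 13 mitochondrial protein genes had a median of -0.023 with 1 higher (MT-CO2, a subunit of cytochrome c oxidase, 0.10), and MT-CO1 and MT-ATP6 had -0.05 and 0.09. The 15 nuclear copies of mitochondrial genes had a median of 0.044 and none at that threshold, with MTCYBP36, MTCYBP18 and MTND4P24 at -0.67, -0.16 and 0.40.

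Messenger RNAs of the translation apparatus, which carry the signal that ribosome profiling is made for, gave no call. None of the 84 cytosolic ribosomal protein genes was called, 2 were higher (RPLP2, 0.08, and RPS3, 0.07) and 1 lower (RPS23, -0.09) at an unadjusted p under 0.05, and the median was 0.000. Of 26 ribosomal protein pseudogenes, 1 was higher (RPLP0P2, 0.89) and 1 lower (RPL22P24, -0.46) at that threshold, and RPL36AP52 had 0.74 on 3.2 counts on average. The 55 replication-dependent histone genes had a median of 0.012 with 1 higher (H2AC20, 0.13), and H2BC4 and H2AC13 had 0.07 and -0.10. Ribosomal protein, histone and RN7SL genes have near-identical copies, and reads shared by them were lost when only uniquely mapped reads were kept.

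No gene passed an unadjusted p of 0.05 among 11 translation elongation factor genes (EEF2K 0.15, EEF1B2 0.08 and EEF1D 0.05), 16 ribosome biogenesis genes (POLR1A -0.11, NHP2 -0.13 and BOP1 0.13), 7 mRNAs with upstream reading frames (PPP1R15A -0.07, EPRS1 0.04 and IFRD1 -0.28) or 12 B cell markers (CR2 -0.10, CD79A -0.03 and CD74 -0.02). PPP1R15A codes for a phosphatase subunit of the integrated stress response, which arsenite sets off. Its raw counts were 306, 586 and 224 in T libraries of arsenite GM19193, GM19204 and GM18505, against 779, 537 and 270 in U libraries. After scaling for depth, the log2 ratios of T over U in these pairs were -0.07, -0.03 and -0.14. The genes with an exact 20-base rRNA word and the next smallest p, SH3PXD2B and PWWP3A, had 0.67 and 0.48 and were not called.

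The spike-in oligomers, synthetic RNAs designed to resemble miRNAs in base composition, gave a reference outside the genes. Summed over 16 oligomers they were 0.682%, 7.45% and 2.72% of mapped counts in T libraries of arsenite GM19193, GM19204 and GM18505, against 0.727%, 7.49% and 2.61% in U libraries, and 1.55%, 0.608% and 0.345% in T libraries of the control cells, against 1.56%, 0.615% and 0.356% in U libraries. Relative to summed genes they were lower in T in 5 of 6 pairs, by a mean log2 ratio of -0.019 ± 0.049 (SD, n = 6 pairs, exact sign-flip p = 0.375). Of the 7 oligomers that reached 10 reads in all 12 libraries, A4_246 was lower in T in all 6 pairs, at -0.081 ± 0.029 (SD, exact p = 0.031, the smallest possible, adjusted p = 0.2188 over the 7), and the other 6 had means between -0.101 and 0.071. In edgeR no oligomer was called, 0 were higher and 2 lower at an unadjusted p under 0.05, and those 7 lay between -0.095 and 0.009 on the log2 scale.

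**Figure D5:**
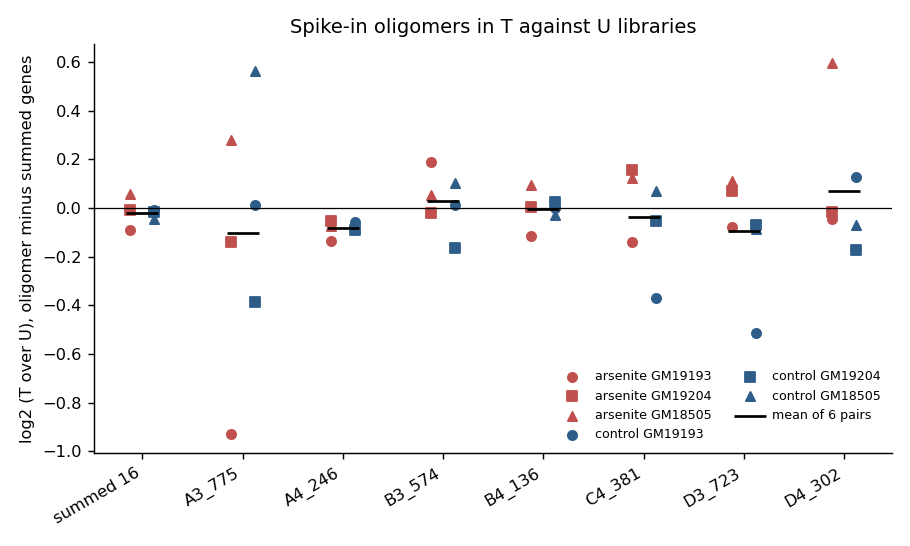
Log2 ratio of T over U for the summed 16 oligomers and for each of the 7 oligomers that reached 10 reads in all 12 libraries, minus that of the summed genes (vertical axis), 1 point per pair, arsenite in red left of control in blue, with a black bar at the mean. A4_246 lies below 0 in 6 of 6 pairs, and the summed oligomers lie between -0.092 and 0.058.

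Across the 6040 annotated genes that averaged at least 50 counts, the Spearman correlation of the log2 ratio of T over U with the GC content of exons was 0.014, 0.001 and -0.015 in the arsenite pairs of GM19193, GM19204 and GM18505, and -0.058, -0.094 and 0.021 in the control pairs. With exonic length it lay between -0.032 and 0.018, and with mean count, over 6045 genes, between -0.017 and 0.033. These values describe genes within single pairs and carry no test.

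Last, the treatment comparison was made in each kind of library alone, with the cell line as a block. In T libraries edgeR called 2697 genes higher and 2509 lower with arsenite than in control (42.1% of genes), and in U libraries 2877 higher and 2701 lower (45.1%). Without any scaling, T libraries gave 216 higher and 8512 lower, with a median log2 fold change of -1.61, and U libraries gave 20 higher and 6742 lower, with a median of -1.81. When the deeper library of each pair was thinned to the shallower, the calls numbered 5158 in T and 5066 in U libraries. Both comparisons use the same cultures and TMM scaling, which removes any shift common to all genes. A lower level per cell and fewer cells cannot be told apart from the gene counts alone. The spike-in pool was added by amount of digested RNA, not by cell number. With the oligomers as control genes, the paper found most changes with arsenite to be decreases, and it reported that TMM distorted fold changes. Spike-in scaling was not applied to the treatment comparison here.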

How the data were processed

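The deposited files hold raw counts, for each gene and each spike-in oligomer, of footprint reads that mapped to 1 place. The authors trimmed adapters, removed reads matching rRNA, tRNA and snoRNA, mapped the rest with TopHat2 to GRCh38 and counted them with featureCounts of Subread on GENCODE 37; their versions were not given in the sources used here. They kept a gene if all 12 libraries had a read of it. The deposited counts are not normalized, while the paper's own tests compared unnormalized data with TMM and with a normalization based on the spike-in oligomers. Symbols, classes and positions came from GENCODE 44 (12343 of 12357 identifiers matched).

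T and U were compared with edgeR 4.0.16 in R 4.3.3 (glmQLFit, glmQLFTest, two-sided, TMM from genes, Benjamini-Hochberg adjustment over 12373 features at 0.05), with the sample as a block. The SE of a fitted log2 fold change is its size divided by the square root of the F statistic of that test. It rests on a spread estimated with information from all genes and libraries, and is not the spread of the pairs. T and U come from the same RNA, and their deviations from group means correlated at 0.597 to 0.89 in the 6 pairs, each T best with its own U. Alternatives were DESeq2 1.42.0, limma 3.58.1 on log2(count + 0.25), other scalings, count filters, thinning, no block and leaving out each pair. Log2 ratios of single pairs added 0.25 to each count before TMM scaling. Shares were tested with an exact two-sided sign-flip test. rRNA windows were found with bwa 0.7.19. The rule for named genes took called genes with a symbol, a mean count of at least 20 and 1 direction in 6 pairs (0 genes) and, for each gene list, the 3 members with the smallest p; XIST, TSIX, chromosome Y and immunoglobulin segments were left out. Members and lists were chosen with earlier results of these data known. A sequence that is withheld is not reported here.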

Additional observations from a re-analysis of the deposited data

Results flagged for a closer look

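The limit for a gap at one end flags about 1 in 20 by chance among independent normal values of equal spread. The values here do not meet that, since pairs differ in depth and some values rest on few reads. An excess over 1 in 20 can therefore not be read from them. Single pairs stood apart from the other 5 in 11 of 93 values tested. On the log2 scale of T over U these were the share of other pseudogenes at 0.069, MT-CO2 at 0.40, MIR26B at 1.89 and VTRNA1-2 at -0.36 in arsenite GM18505, RNY4P6 at 0.08 and NHP2 at -1.11 in arsenite GM19193, the oligomer D3_723 at -0.514 and MT-TA at -1.46 in control GM19193, MT-TQ at -0.71 in control GM19204, and RN7SL11P at -2.71 in control GM18505. The chi-square per gene between T and U was lowest in arsenite GM19204, at 1.429, and the other 5 pairs lay at 1.58 or above.

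Among the class shares, the summed oligomers, the genes called and those with the smallest p, 3 had every arsenite pair positive and every control pair negative. RNA5SP202 and RN7SL11P, which were not among those, had the same signs, and EEF1D had the opposite ones. The mean difference, arsenite minus control, was 0.051 for the share of immunoglobulin and T cell receptor genes, and this difference was not tested. It was 0.97 for ACAD9 and 1.185 for LDHB, and edgeR's quasi-likelihood test of those differences, with Benjamini-Hochberg adjustment, gave an adjusted p of 0.283 for each.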

How the results depend on the processing

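The count of genes called over 6 pairs, 2, was 1 with total counts as scale, with the spike-in total as scale or at a mean count of at least 10, and 0 at a mean count of at least 50, with DESeq2 or with limma. The pairing mattered: with no replicate block, with or without the cell line as a term, both the 6 pairs and the control pairs gave 0 calls. The 3 calls of the control pairs were 0 with DESeq2 and limma and 1 after thinning. Leaving out 1 pair gave 0 to 4 calls over 6 pairs, 0 to 4 in control pairs, 0 to 9 in arsenite pairs and 0 to 2 for arsenite minus control. The arsenite calls in T libraries, 5206, were 8728 without scaling, 3115 with no replicate block for the cell line and 3404 to 4791 without 1 cell line; in U libraries, 5578 became 3569 with no block. The causes were not tested. With 5 pairs the sign-flip test cannot go below 0.0625. At a mean count of at least 10, more of the arsenite calls were lower than higher, with 1917 higher and 2462 lower in T libraries and 2047 higher and 2661 lower in U libraries, and without GM19193 the U libraries gave 2362 higher and 2412 lower.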

Other observations

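Some genes with low counts had large fitted values without a call over 6 pairs, and all were chosen after their values were seen. EVC2, a gene of cilia, was higher in T in 6 of 6 pairs at a log2 fold change of 1.55 (SE 0.404) on 4.9 counts on average, with an adjusted p of 0.704 in edgeR's quasi-likelihood test. PXDN, a peroxidase of the extracellular matrix, was lower in 6 of 6 pairs at -1.55 (SE 0.432) on 5.7 counts on average. TIMM8A, a chaperone of the mitochondrial intermembrane space, had 1, 4 and 1 counts in T libraries of arsenite GM19193, GM19204 and GM18505, against 21, 9 and 17 in U libraries, and 16, 40 and 16 in T libraries of control cells, against 27, 54 and 56 in U libraries. Its fitted value was -2.51 (SE 0.58, adjusted p = 0.216 in edgeR) in the arsenite pairs and -0.38 (SE 0.292) in the control pairs.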
